A study of Homo sapiens with 8 samples.

Results

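A set of 10 long non-coding RNAs was followed across 8 human cancer cell lines, each sequenced as 1 library. MALAT1, NEAT1, GAS5, PVT1, HOTAIRM1, HOTTIP, HOTAIR, EMX2OS, LINC00958 and UCA1 were taken by symbol, and each matched 1 Ensembl identifier, giving 10 of 58202 genes in the files. The names were selected on their FPKM levels in these same 8 libraries, which were known beforehand, so the levels below are a description and carry no test. Values are FPKM, read fragments divided by the length of the transcript and by the library's mapped total, and an FPKM of 1 or more counts as detected. The study set out to compare ERBB4-expressing lines by their response to ibrutinib, a covalent kinase inhibitor, but the labels do not say which line responds, and that comparison was not made.

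The endometrial lines were KLE, from an adenocarcinoma, and HEC59, from a carcinoma. COV318 came from an epithelial-serous ovarian carcinoma. Of the lung lines, H522 was labelled non-small cell, H661 large cell and H146 small cell lung cancer. H716 was a colorectal adenocarcinoma line with cecum as its tissue, and 1321N1 was a brain astrocytoma line with glial tissue. All 8 lines are described as expressing ERBB4, were grown in plates for 48 h before RNA extraction and received no drug that the labels mention. Passage numbers were given as ranges between 3 and 15. A line is 1 tumour's descendants, so lines of a tissue differ by tumour as well as by tissue, and with 1 library per line there is no spread within a line.

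Long non-coding RNAs are transcripts of gene length that encode no known protein. Many act where they are made: some build nuclear bodies, some carry smaller RNAs in their introns, and some lie beside or across a developmental gene and are transcribed with it. The names followed here are known from tumours in which their level is altered. They divide into nuclear and housekeeping RNAs (MALAT1, NEAT1, GAS5), the neighbour of the MYC oncogene (PVT1) and RNAs of the HOX clusters (HOTAIRM1, HOTTIP, HOTAIR). The rest are the partner of the homeobox gene EMX2 (EMX2OS) and intergenic RNAs first described in epithelial cancers (LINC00958, UCA1).

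Sequence shows how some of these RNAs are built and how close others lie to a protein-coding partner. MALAT1 and NEAT1 neighbour each other on chromosome 11. MALAT1 and the long form of NEAT1 are known to end not in a poly(A) tail but in an A-rich stretch. That stretch folds into a triple helix with T-rich stretches before it. The stretches are given below from the GENCODE v29 transcripts, bases 8260 to 8355 of the 8708 bases of MALAT1-202 and bases 22648 to 22743 of the 22743 bases of NEAT1-202, with TTTTTCTTTT, TTTTGCTTTT and AAAAAGCAAAA in capitals.
MALAT1-202: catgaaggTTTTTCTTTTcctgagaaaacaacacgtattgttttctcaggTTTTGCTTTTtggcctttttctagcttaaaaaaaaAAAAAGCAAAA
NEAT1-202: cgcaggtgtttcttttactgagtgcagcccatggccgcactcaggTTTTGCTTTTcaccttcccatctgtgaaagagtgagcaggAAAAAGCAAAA
On the transcribed strand, AAAAAGCAAAA occurred in 903 of 206694 GENCODE v29 transcripts (0.437%). One of these T-rich stretches stood within the 100 bases before it in 10 transcripts, from 4 genes: MALAT1, NEAT1, ALG14 and RETREG3.

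The start of GAS5 is shown because GAS5 is known as a gene whose RNA begins with a C and a run of pyrimidines, as those of ribosomal proteins do. The first 60 of the 822 bases of GAS5-214, on chromosome 1, are given with the opening CTTTT in capitals. Of the 206694 transcripts, 497 (0.240%) open with these letters on the transcribed strand.
GAS5-214: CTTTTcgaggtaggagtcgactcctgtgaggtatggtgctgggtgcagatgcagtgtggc

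Promoter windows, 250 bases before to 50 bases after a gene's start, are shown for pairs whose RNAs were highest in the same line. Sequences are from a table of RefSeq promoters on GRCh38.p14, in which 3 of the 10 members were matched. HOTTIP's window, chr7:27200171-27200470 on the plus strand, shares 171 bases with that of HOXA13 on the minus strand, and those bases are in capitals. The window of EMX2, chr10:117542496-117542795 on the plus strand, is shown for EMX2OS, which runs across EMX2 on the opposite strand; CCAAT is in capitals.
HOTTIP promoter: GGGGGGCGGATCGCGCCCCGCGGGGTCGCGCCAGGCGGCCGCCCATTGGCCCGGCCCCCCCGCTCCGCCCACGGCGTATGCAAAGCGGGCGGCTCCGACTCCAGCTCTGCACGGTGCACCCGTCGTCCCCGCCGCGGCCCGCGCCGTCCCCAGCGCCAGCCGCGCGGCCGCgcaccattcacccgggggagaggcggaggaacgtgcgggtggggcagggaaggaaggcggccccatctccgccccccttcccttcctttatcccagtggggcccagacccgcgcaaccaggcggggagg
EMX2 promoter: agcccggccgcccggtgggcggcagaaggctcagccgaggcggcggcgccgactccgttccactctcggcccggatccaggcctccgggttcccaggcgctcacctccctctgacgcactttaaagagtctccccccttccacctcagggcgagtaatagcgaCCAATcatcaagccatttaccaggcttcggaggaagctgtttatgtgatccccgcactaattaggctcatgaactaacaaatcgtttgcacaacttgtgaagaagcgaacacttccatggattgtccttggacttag
CCAAT, searched on both strands, was in both windows and in 34.6% of the 35116 windows in the table. TATAAA, also searched on both strands, was in neither and in 11.5% of the table. CG occurred 41 times in the HOTTIP window and 21 times in the EMX2 window, against a median of 14 over the table.

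**Figure D1:**
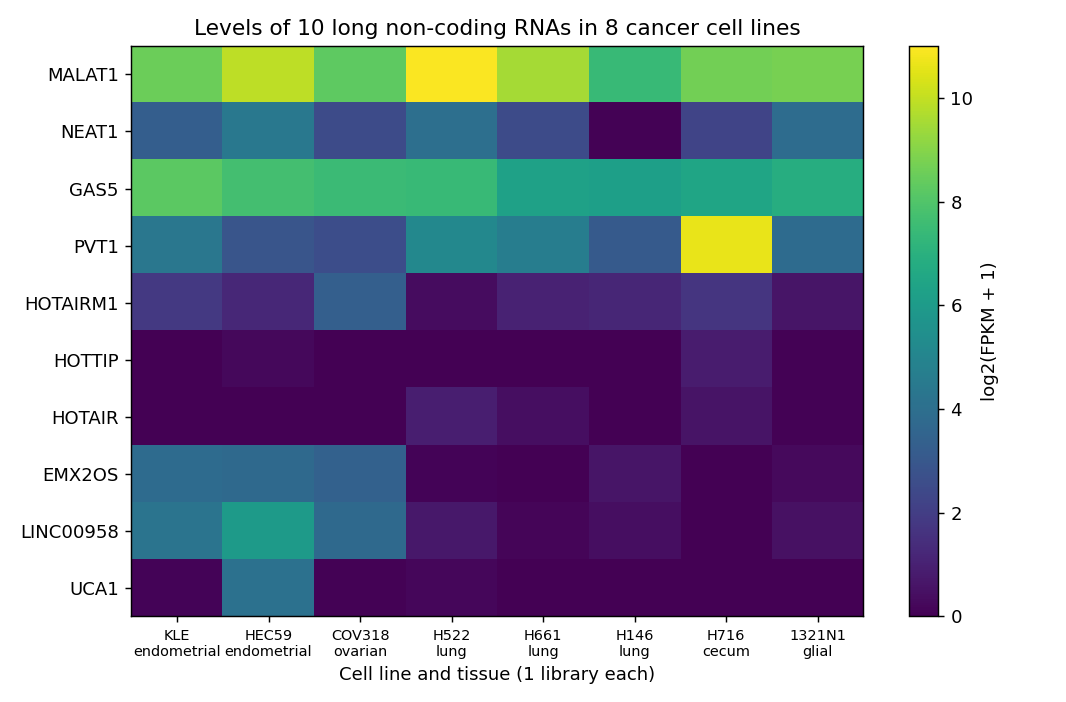
Colour gives log2(FPKM + 1) of the 10 long non-coding RNAs (rows) in the 8 lines (columns, 1 library each, with tissue). MALAT1, GAS5 and PVT1 were detected in all 8 lines, EMX2OS and LINC00958 in the 3 endometrial and ovarian lines, and UCA1 in HEC59.

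Of the 10 RNAs, 8 were detected in at least 1 line. MALAT1, GAS5 and PVT1 reached an FPKM of 1 in 8 of 8 lines, NEAT1 in 7 and HOTAIRM1 in 6. EMX2OS and LINC00958 reached it in 3 lines and UCA1 in 1. HOTTIP and HOTAIR stayed below 1 in all 8 lines, although each reached 0.5 in at least 1. Spread over the lines also differed: the SD of log2(FPKM + 1) was 0.74 for GAS5, 1.09 for MALAT1, 1.39 for NEAT1 and 2.57 for PVT1. The median over the 19209 genes detected in at least 1 line was 0.64.

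Summed FPKM ran from 376880 in H146 to 2452060 in KLE, and between 376880 and 511451 once single values above 100000 were left out. Each line had 12205 to 13300 detected genes. With single values above 100000 left out, mitochondrial genes took 4.37% to 16.1% of summed FPKM. The total number of reads is unknown, so no counting error can be given. Low values fell into 2 sets by their read steps, H522, H661, KLE and H716 in one and 1321N1, HEC59, COV318 and H146 in the other, and differences are also given within each set where they matter. Of 4 Mullerian markers, PAX8 was at 45.7 FPKM in KLE, 184.5 in HEC59 and 72.6 in COV318, against at most 5.84 in the other lines. SOX17 was at 10.3 in KLE, 56.1 in HEC59 and 26.7 in COV318, and below 0.1 elsewhere. MUC16 was at 8.18 in KLE and 2.97 in HEC59 but 0.111 in COV318, and WT1 was at 28.7 in KLE and 5.47 in COV318 but 0.408 in HEC59, below the 12.4 of H522. Lung lineage markers were near 0 in H522 and H146, and NKX2-1 was at 11.2 in H661 alone. Of 4 intestinal markers, CDH17 was at 137 in H716 and below 0.5 elsewhere and CDX2 at 1.31 in H716, but VIL1 was at 1.07 there and 8.74 in H146, and LGALS4 was below 0.5 in all lines. Of 5 neuroendocrine markers, H146 had 5 detected and H716 had 4. In 1321N1 the astrocyte marker GFAP was at 3.10, but OLIG2, SOX10, S100B and ALDH1L1 were all below 0.02. GFAP was also at 1.57 in H146. All 4 immune markers were below 1 in every line. Of 4 fibroblast markers, 1321N1 had COL1A2 at 533, COL1A1 at 121, DCN at 32.3 and LUM at 12.4. H661 had COL1A2 at 278 and COL1A1 at 21.2 but DCN at 0.339, and LUM was highest in H716, at 52.7.

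MALAT1, the RNA of nuclear speckles where splicing factors gather, was among the most abundant RNAs of every line. Its FPKM was 372 in KLE, 948 in HEC59, 305 in COV318, 1975 in H522, 729 in H661, 171 in H146, 399 in H716 and 429 in 1321N1. The values run over an 11.5-fold range, and H522 had 2.08 times the level of HEC59, the next. Even in H146, the lowest line, MALAT1 lay above 97.9% of detected genes, and it ranked 18th of all genes in H522 and 276th in H146. The lung lines held both ends of this range. In bulk libraries, RNA in fewer cells and less RNA per cell cannot be told apart, here and for every level below.

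RNAs encoding nuclear speckle proteins varied less than MALAT1 did. All 8 listed genes were detected in all 8 lines, with SRSF3 between 134 and 252 FPKM, SRRM2 between 94.4 and 259, SRSF7 between 79.8 and 196, SRRM1 between 50.03 and 181 and SON between 66.9 and 123. By limma, 0 of the 8 were called in any comparison of tissues described below, with 2 at an unadjusted p under 0.05 in endometrial and ovarian lines, 1 in endometrial lines and 0 in lung lines. Over all 15650 tested genes the share at that threshold was 7.30% for endometrial and ovarian lines, 4.82% for endometrial lines and 5.94% for lung lines. The genes whose pattern was most like that of MALAT1 over the 8 lines were RP11-632K20.7 (Pearson r = 0.98), CCDC43 (r = 0.98) and DDX19B (r = 0.98). All correlations here are over 8 lines, are the highest of 15650 genes where so named, and share the same libraries, so they are given without a test.

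NEAT1, the RNA scaffold of paraspeckles, was far lower than MALAT1 and nearly missing in 1 line. It was at 8.75 FPKM in KLE, 20.4 in HEC59, 4.73 in COV318, 15.2 in H522, 4.70 in H661, 0.0459 in H146, 3.72 in H716 and 13.9 in 1321N1. H146 stood 80.9-fold below H716, the next lowest, while the other 7 lines lay within 3.72 to 20.4. In log2(FPKM + 1) that gap was 2.17, the 239th widest lower gap among the 19209 detected genes. MALAT1 was also lowest in H146, and the levels of this pair of neighbours had r = 0.75 over the lines. The annotation used by the authors and the length by which NEAT1 was divided are not stated in the labels or notes, so its short and long forms cannot be told apart. Whether the libraries were selected for poly(A) tails is likewise not stated, and its part in the levels of MALAT1 and NEAT1 was not tested.

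RNAs encoding paraspeckle proteins were present in H146, where NEAT1 was low, and protein was not measured. NONO was at 365 FPKM there, SFPQ at 117, HNRNPK at 183 and HNRNPH3 at 176. Of the 9 listed genes, 8 were detected in all 8 lines. The exception, named after its values were seen, was PSPC1, at 0.122 in COV318 and between 8.01 and 64.0 elsewhere. Among the genes most like NEAT1 were LAMB2, a laminin chain (r = 0.96), and PPARD, a lipid-sensing nuclear receptor (r = 0.95). PPARD was at 0.286 in H146 and between 7.09 and 35.1 in the other lines. Also low in H146 alone were LINC00152, another cancer-linked long non-coding RNA, at 0.197 against 15.4 to 106 elsewhere, and REST, the repressor of neuronal genes, at 0.0375 against 22.9 to 53.6 elsewhere. REST was named after its values were seen.

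GAS5, a host gene for small nucleolar RNAs whose own transcript is known to bind the glucocorticoid receptor, was abundant in all lines. Its FPKM was 296 in KLE, 206 in HEC59, 182 in COV318, 171 in H522, 78.0 in H661, 73.1 in H146, 86.4 in H716 and 115 in 1321N1. The 4.05-fold range was the narrowest of the members, and the 3 endometrial and ovarian lines held the highest levels. COV318 exceeded H522, the highest of the other lines, by a factor of 1.06, so that the groups are separate by a small margin. GAS5-AS1, which overlaps it on the opposite strand, was at 2.13 to 6.20 FPKM.

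Other small nucleolar RNA host genes were also widely present, with 11 of 11 detected in all 8 lines. SNHG16 ranged from 87.0 to 395 FPKM, ZFAS1 from 16.6 to 216, SNHG1 from 32.2 to 135, SNHG5 from 17.5 to 198 and SNHG3 from 18.8 to 103. NR3C1, the glucocorticoid receptor, was between 1.59 in H716 and 34.7 in 1321N1. None of the 10 small nucleolar RNAs of GAS5 introns had a row in the files. Most like GAS5 were BTC, an ERBB ligand known as betacellulin (r = 0.94), RP11-452J6.2 (r = 0.94) and FLG-AS1 (r = 0.94). BTC was at 3.25 in KLE, 2.12 in HEC59, 1.06 in COV318 and 0.634 in H522, and was listed at 0 in the other 4 lines.

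PVT1, which lies downstream of the MYC oncogene on chromosome 8, was present in all lines and set 1 of them apart. It was at 19.7 FPKM in KLE, 6.55 in HEC59, 5.08 in COV318, 34.6 in H522, 24.3 in H661, 7.76 in H146, 1571 in H716 and 13.5 in 1321N1. H716 had 45.4 times the level of H522, the second highest, and the remaining lines spanned 5.08 to 34.6. In H716 PVT1 ranked 29th of all genes, close to the place of MALAT1 in H522. Its gap of 5.46 in log2(FPKM + 1) was the 105th widest upper gap among the 19209 detected genes.

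No gene named here beside PVT1 came near its level in H716, although FAM49B, POU5F1B and CASC11 were also highest there. MYC, the neighbour before it, was at 52.1 FPKM in H716, below the 85.5 in H522 and above the 45.3 in COV318, 45.1 in HEC59, 37.9 in H146, 32.6 in KLE, 10.6 in H661 and 8.96 in 1321N1. Over the 8 lines MYC and PVT1 had r = 0.20. FAM49B, the fifth gene after PVT1, was highest in H716 at 31.6 but only just above 30.7 in H522, and no line was under 13.4. POU5F1B was at 1.55 in H716 and below 0.05 in every other line, with r = 0.94 to PVT1. CASC11 stayed at or below 0.388, its level in H716, in all 8 lines, with r = 0.73. These neighbours, in RefSeq order, were looked up after the level of PVT1 was known. Of the MYC family, MYCN was highest in COV318, at 17.8, and MYCL in H522, at 12.3, and neither reached 1 in H716. Most like PVT1 were AOX1, aldehyde oxidase (r = 0.96), the pseudogene TECRP1 (r = 0.96) and CACNA2D2, a calcium channel subunit (r = 0.96). CACNA2D2 was at 76.2 in H716, against at most 3.12 in the other lines.

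**Figure D2:**
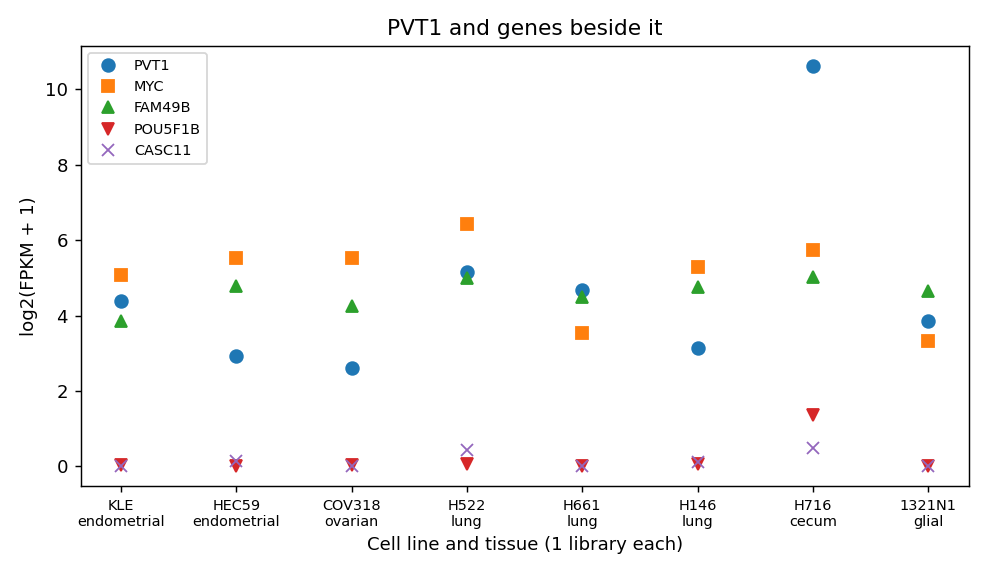
Points give log2(FPKM + 1) of PVT1 and of MYC, FAM49B, POU5F1B and CASC11, genes near it, in each of the 8 lines (1 library each). PVT1 alone stands above 10 in H716, where MYC and FAM49B lie within their range over the other lines or just above it. POU5F1B and CASC11 are low in all lines and highest in H716, POU5F1B with 1.55 FPKM there and below 0.05 elsewhere.

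HOTAIRM1, transcribed from the front end of the HOXA cluster, was low but detected in most lines. It was at 2.58 FPKM in KLE, 1.32 in HEC59, 9.16 in COV318, 0.275 in H522, 1.10 in H661, 1.24 in H146, 2.21 in H716 and 0.532 in 1321N1. COV318 had 3.55 times the level of KLE, the second. HOXA4, at 8.72, and HOXA2, at 1.47, were also highest in COV318, whereas HOXA5 was highest in H716, at 38.9, and HOXA3 at 7.46 in H716 and 6.53 in COV318. Most like HOTAIRM1 were ZNF277 (r = 0.96), YOD1 (r = 0.96) and TRIM62 (r = 0.95).

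HOTTIP, from the far end of the same cluster, is known to bind WDR5 and to support the HOXA genes beside it. It reached 0.801 FPKM in H716 and 0.190 in HEC59, was at 0.0546 in 1321N1 and 0.0235 in KLE, and was listed at 0 in COV318, H522, H661 and H146. HOXA13, with which it shares the promoter bases shown above, was at 9.11 in H716, 1.52 in HEC59, 0.413 in 1321N1, 0.258 in KLE and below 0.12 in the other 4. The order of the 4 highest lines was therefore the same for both RNAs, and r was 0.996. HOXA10 was at 48.5 and HOXA11 at 7.32 in H716, with 18.9 and 2.97 in HEC59, and HOXA9 was at 25.8 in H716 and 18.1 in HEC59. HOXA7 followed another order, with 41.5 in KLE, 40.9 in H716 and 36.5 in COV318. WDR5 itself was at 6.48 to 17.2 FPKM in all lines.

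HOTAIR, from the HOXC cluster, is known to bind the repressive complexes PRC2 and LSD1. It was at 0.880 FPKM in H522, 0.514 in H716, 0.310 in H661, 0.0495 in 1321N1 and 0.0220 in KLE, and was listed at 0 in HEC59, COV318 and H146. The HOXC genes did not follow a single order. HOXC10 was at 64.1 in H522 and 34.7 in H661, and HOXC13 at 5.30 in H522 and 6.60 in H661, but in H716, second for HOTAIR, HOXC13 was at 0.0690. HOXC4, at 5.22, HOXC5, at 3.65, and HOXC9, at 3.66, were highest in 1321N1. HOXC11, which overlaps HOTAIR on the opposite strand, was at 1.05 in H522 and 0.592 in H661 and had r = 0.91 with it. In HEC59 and H146 all 9 HOXC genes were below 0.21. Of the 8 listed PRC2 and LSD1 genes, 7 had RNA detected in every line, and REST was at 0.0375 in H146. EZH2 was at 12.1 to 51.0, SUZ12 at 9.72 to 20.5, RBBP4 at 46.5 to 125 and KDM1A, the LSD1 enzyme, at 39.8 to 148. Protein was not measured.

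EMX2OS, HOTTIP, HOTAIR and GAS5 each overlap a gene on the opposite strand in GENCODE v29. The labels and notes do not say whether reads were assigned by strand. Without that, reads from these RNAs and from EMX2, HOXA13, HOXC11 and GAS5-AS1 cannot be told apart where they overlap, and the correlations within these pairs are uncertain for that reason.

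**Figure D3:**
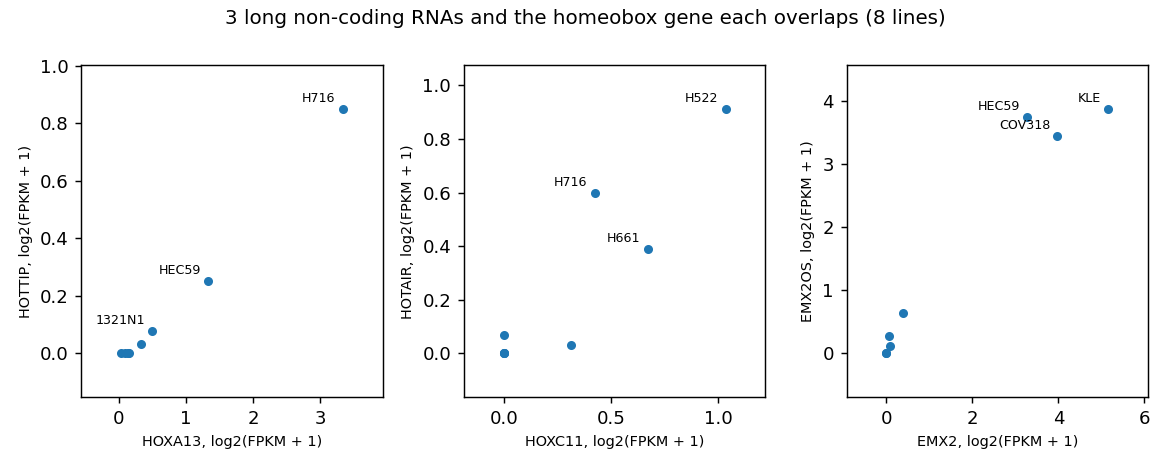
Each panel plots a long non-coding RNA (vertical axis) against the homeobox gene it overlaps on the opposite strand (horizontal axis), both in log2(FPKM + 1), with 1 point per line. H716 is the top point for HOTTIP and H522 for HOTAIR, and KLE, HEC59 and COV318 stand apart for EMX2OS.

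EMX2OS, antisense to the homeobox gene EMX2 that patterns the developing urogenital tract and cortex, marked the endometrial and ovarian lines. It was at 13.5 FPKM in KLE, 12.4 in HEC59 and 9.83 in COV318, against 0.0839 in H522, 0 in H661, 0.553 in H146, 0 in H716 and 0.217 in 1321N1. The lowest of the 3 lines was 17.8 times the highest of the other 5, and the groups did not overlap. In log2(FPKM + 1) the endometrial and ovarian lines averaged 3.68 ± 0.22 (SD, n = 3) and the other lines 0.21 ± 0.27 (SD, n = 5), a difference of 3.47 with an SE of 0.35. That difference was 3.82 within the read-step set of KLE and 3.13 within that of HEC59 and COV318.

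EMX2 followed the same lines as EMX2OS. Its FPKM was 34.8 in KLE, 8.72 in HEC59 and 14.7 in COV318, against 0.0615 in H522, 0 in H661, 0.311 in H146, 0 in H716 and 0.0434 in 1321N1. Its order within the 3 lines was not that of EMX2OS, since COV318 exceeded HEC59, and r over all lines was 0.97. EMX1, the other EMX gene, was at 1.20 in KLE, 0.465 in HEC59 and 3.94 in COV318, against 2.15 in H146 and less than 0.1 in the other 4. Further genes after EMX2OS that were highest in KLE were RAB11FIP2 at 48.3 and CASC2 at 5.92. Both were second highest in COV318, at 48.2 and 3.29. Most like EMX2OS were CDS1 (r = 0.99), LY75 (r = 0.98) and CFI, complement factor I (r = 0.98).

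LINC00958, an intergenic RNA known from bladder and other epithelial cancers, was high in the same lines. Its FPKM was 17.7 in KLE, 62.1 in HEC59 and 12.7 in COV318, against 0.647 in H522, 0.107 in H661, 0.327 in H146, 0 in H716 and 0.412 in 1321N1. The lowest of the 3 was 19.7 times the highest of the other 5. Unlike EMX2OS, whose 3 levels were close, LINC00958 was several-fold higher in HEC59 than in KLE or COV318. The endometrial and ovarian lines averaged 4.66 ± 1.16 (SD, n = 3) and the other lines 0.35 ± 0.29 (SD, n = 5) in log2(FPKM + 1), a difference of 4.31 with an SE of 0.52. Within the read-step sets it was 3.94 in that of KLE and 4.43 in that of HEC59 and COV318.

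The genes around LINC00958 did not share its pattern. TEAD1, beside it on chromosome 11, was at 46.1 FPKM in KLE, 47.8 in HEC59 and 35.6 in COV318, against 24.6 to 84.4 in the other lines, with r = -0.09. ARNTL was at 1.35 to 4.16 in all lines, and RASSF10 was at or below 0.129. Most like LINC00958 were SEMA4A, a semaphorin (r = 0.99), LY75 (r = 0.99) and DCDC2 (r = 0.98). LY75 was thus among the 3 most alike for both EMX2OS and LINC00958, which had r = 0.96 with each other.

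**Figure D4:**
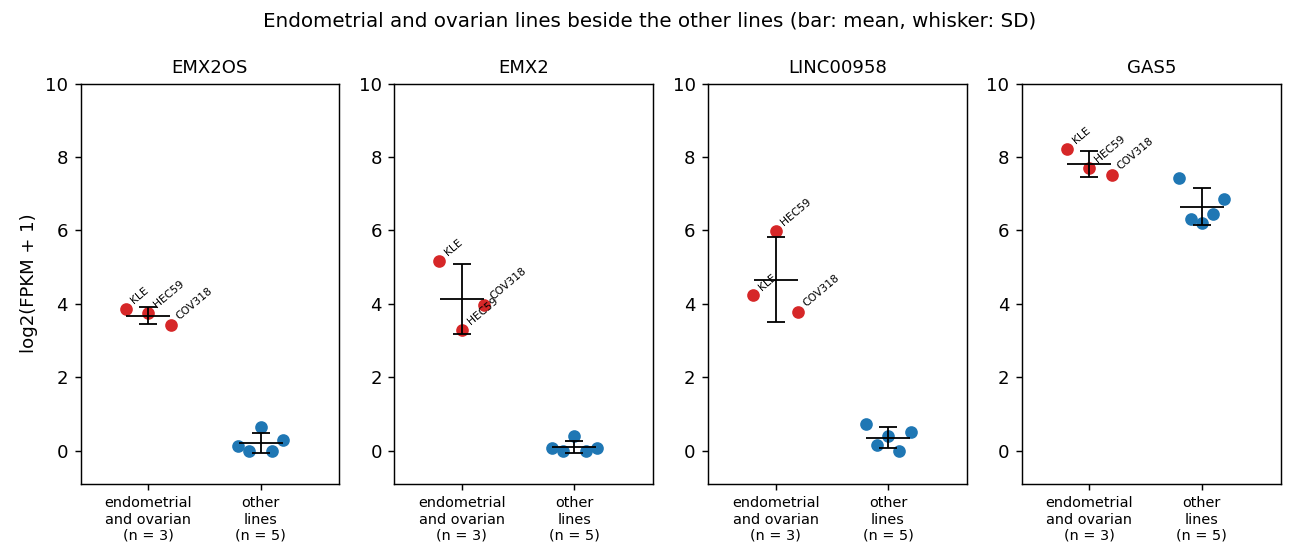
Points give log2(FPKM + 1) of EMX2OS, EMX2, LINC00958 and GAS5 in the 3 endometrial and ovarian lines (red, named) and the other 5 lines (blue), with the mean (bar) and SD (whisker). The groups are far apart for EMX2OS, EMX2 and LINC00958, and for GAS5 COV318 lies just above the highest of the other lines.

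UCA1, named after urothelial carcinoma, was detected in HEC59 alone. It was at 16.1 FPKM there, 126-fold above H522, the second, at 0.128. KLE had 0.0695, COV318 0.0598, H716 0.0183 and H661 0.0171, and H146 and 1321N1 were listed at 0. The other endometrial line thus lay with the rest. CYP4F11, 2 genes from UCA1 on chromosome 19, was also highest in HEC59, at 8.01, and reached 3.24 in H716, where UCA1 was near 0. CYP4F3 reached 1 only in H716, at 3.20, and CYP4F2, CYP4F12 and CYP4F22 stayed below 0.56 in all lines.

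Tissue groups were set against each other by limma on log2(FPKM + 1) over the 15650 genes that 2 or more lines held at an FPKM of 1 or above, with a gene called at a Benjamini-Hochberg adjusted p under 0.05. Of the 10 members, 7 passed this filter. HOTAIR, HOTTIP and UCA1 did not and were not fitted. Between the 3 endometrial and ovarian lines and the other 5, 31 genes (0.198%) were called, of which 28 (0.179%) were higher in the endometrial and ovarian lines. EMX2OS and LINC00958 were among those 28, and among all tested genes EMX2OS had the smallest p, before LINC00958 at the 12th place. Since both were picked with these levels known, the calls describe where they stand and are no independent evidence, and no p is given. Both also passed the filter only through the 3 lines in which they were high. The filter and the comparison were thus not independent for them, and their calls and ranks were partly fixed beforehand. The LINC00958 call was lost with a pseudocount of 5, without the filter, with the read-step set as a term and without H661.

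Other members were not called between the endometrial and ovarian lines and the other lines. GAS5 averaged 7.81 ± 0.36 (SD, n = 3) in the endometrial and ovarian lines and 6.65 ± 0.50 (SD, n = 5) in the other lines in log2(FPKM + 1), a difference of 1.16 with an SE of 0.36. It was the third member, with EMX2OS and LINC00958, whose groups did not overlap, where 2.52% of tested genes were higher and 2.82% lower without overlap. HOTAIRM1 differed by 1.16 (SE 0.54), NEAT1 by 0.86 (SE 0.88), MALAT1 by -0.16 (SE 0.73) and PVT1 by -2.19 (SE 1.47), all with overlap. The median difference over all tested genes was -0.05.

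Between the 2 endometrial lines and the other 6, 1 gene (0.00639%) was called by limma and it was no member. EMX2OS, LINC00958 and GAS5 were again higher without overlap, as were 2.43% of tested genes, while 4.53% were lower without overlap, with COV318 now among the lines they were set against. In log2(FPKM + 1) EMX2OS differed by 3.06 (SE 0.87), LINC00958 by 4.18 (SE 0.98) and GAS5 by 1.16 (SE 0.45), against a median of -0.11 over all tested genes. Without COV318, this comparison and that of endometrial and ovarian lines become the same fit, and EMX2OS and LINC00958 were both called in it. Both then passed the filter only through KLE and HEC59, the lines in which they were high. These calls are therefore no independent evidence. Between the 3 lung lines and the other 5, 4 genes (0.0256%) were called, 3 of them (0.0192%) higher and none of them a member. No member's groups were without overlap there, where 2.07% of tested genes were higher and 2.23% lower without it. EMX2OS differed by -2.01 (SE 0.98) and LINC00958 by -2.47 (SE 1.26) in the lung lines. The 3 comparisons share lines, so their values are not independent of each other.

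Of the genes listed beside the members, EMX2 was the only one called in these comparisons. It was listed as the partner of EMX2OS and passed the filter only through the 3 lines in which it was high. It also overlaps EMX2OS with strand use unknown, so its call is no independent evidence. EMX2 averaged 4.14 ± 0.95 (SD, n = 3) in the endometrial and ovarian lines and 0.11 ± 0.16 (SD, n = 5) in the other lines. The difference was 4.03 with an SE of 0.46. By limma, the HOXA genes called in that comparison numbered 0 of 4 tested at the HOTAIRM1 end, with a median difference of 1.09, and 0 of 6 at the HOTTIP end, with a median of 0.93. Of the 7 tested HOXC genes 0 were called, with a median of -0.93. Small nucleolar RNA host genes had 0 of 11 called and a median of 0.36. Paraspeckle protein genes had 0 of 9 and -0.34, and PRC2 and LSD1 genes 0 of 8 and 0.19. Of 12 tested other cancer-linked long non-coding RNAs 0 were called, with a median of 0.08. At an unadjusted limma p under 0.05 there was 1 gene each among the HOXC genes, the host genes, the paraspeckle proteins and the other long non-coding RNAs, and 0 in the HOXA lists and among PRC2 and LSD1 genes. Over all 15650 tested genes that share was 7.30%. By mean log2(FPKM + 1), the highest of these long non-coding RNAs were TUG1, at 40.4 to 118 FPKM, DANCR, at 33.0 to 169, and JPX, at 16.9 to 74.4.

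Among the members themselves, EMX2OS and LINC00958 had the highest Pearson r, and GAS5 had r = 0.81 with each of them. By Spearman's rho GAS5 and LINC00958, at 0.88, and EMX2OS and LINC00958, at 0.87, were close. PVT1 had r = -0.49 with EMX2OS and -0.48 with LINC00958, and MALAT1 had r = -0.51 with HOTAIRM1. Of the 8 lines, 5 led for at least 1 member: KLE was highest for EMX2OS and GAS5, HEC59 for LINC00958, NEAT1 and UCA1, COV318 for HOTAIRM1, H522 for MALAT1 and HOTAIR, and H716 for PVT1 and HOTTIP. H661, H146 and 1321N1 were highest for none, and H146 was lowest for MALAT1, NEAT1 and GAS5.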

How the data were processed

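RNA of 8 cancer cell lines was sequenced, 1 library per line. Per the file headers, the authors deposited 1 FPKM value for each Ensembl gene and line. SAMtools 1.0, TopHat2 2.0.8 and CASAVA 1.4 are named in the submitters' processing notes, with build GRCh37. For the program behind FPKM, its annotation, strand use and read depth, the sources used here give nothing.

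Values were analysed as log2(FPKM + 1), a pseudocount that understates differences of low genes. Genes that 2 or more lines held at an FPKM of 1 or above were fitted in R 4.3.3 by limma 3.58.1 (trended eBayes, Benjamini-Hochberg adjustment, threshold 0.05), after a test on simulated data. Lines of a tissue are different tumours, so tests measure the spread between lines. FPKM is per length, but compares genes only as far as the authors' lengths hold.

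Members and lists were chosen with earlier results of these data known. Named genes were the 10 members, the 3 genes with the highest Pearson r to each member detected in at least 2 lines, and up to 5 genes per list by mean level, plus cluster neighbours; others are said to be named after their values were seen. Neighbour order came from RefSeq GRCh38.p14 and overlaps from GENCODE v29, without coordinates, since the files use GRCh37. Some genes that this rule would name are not reported here.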

Additional observations from a re-analysis of the deposited data

Results flagged for a closer look

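Over the 8 lines taken as 1 group, the highest level of 3 members stood far from the others, by the gap to the next line divided by the whole range in log2(FPKM + 1). All 3 ratios exceed Dixon's 95% critical value for 8 samples. In all, 10 members were checked. Chance would flag about 1 in 20 groups of unselected, normally distributed values, but HOTTIP was listed at 0 in 4 lines and UCA1 in 2. The members were also selected on the same levels. The share of all detected genes with so large a ratio was not computed, so the ratios only describe these members. PVT1 in H716 had a ratio of 0.682. HOTTIP in H716 had 0.704, although its level there was under an FPKM of 1. UCA1 in HEC59 had 0.958. The lines come from different tissues and tumours, so they are not replicates of a condition.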

How the results depend on the processing

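No paired analysis was possible because replicate numbers only name lines in accession order. Over 18 alternatives, the 7 fitted members in 3 comparisons kept direction and call in 360 of 378 values. For the other values the cause was not tested. Most differences were uncalled to begin with, so they counted as kept if they held their sign and stayed uncalled. NEAT1 in lung lines was thus counted as kept, although its difference went from -1.07 to -0.0054 without H146. Without COV318, 2 of the 3 comparisons are the same fit, and both were counted. EMX2OS was called between endometrial and ovarian lines and the other lines in all 18, and LINC00958 in 14. Both were picked with these levels known, and the main filter passed them only through the lines in which they were high. The settings reuse the same 8 libraries, so these counts describe the processing and are no independent evidence. Genes called numbered 31 in that comparison, but 11 with a pseudocount of 5, 8 without the filter, 14 with the read-step set as a term and 16 to 89 leaving out 1 line (89 without HEC59, 20 without H716, 16 without H661). Endometrial lines against the others gave 1, but 4 with a pseudocount of 5, 20 without the filter and 1 to 30 leaving out 1 line (30 without COV318, 5 without H146, 4 without KLE, 2 without HEC59). Lung lines against the others gave 4, but 11 and 2 with pseudocounts of 0.1 and 5, 1 without the filter, 2 with the set as a term and 1 to 16 leaving out 1 line (1 without COV318, 2 without HEC59, 2 without 1321N1, 8 without H661, 13 without H716, 16 without H146). Detected members numbered 8, and 7 to 8 leaving out 1 line. Uncalled differences turned sign for MALAT1, HOTAIRM1 and PVT1. MALAT1 in endometrial and ovarian lines was 0.0665 with the set as a term and -0.66 to 0.31 leaving out 1 line. Leaving out 1 line, in endometrial lines MALAT1 ranged from -0.38 to 0.97, and HOTAIRM1 from -0.16 to 0.55, with -0.0076 at a pseudocount of 5. In lung lines MALAT1 ranged from -0.35, without H522, to 1.41, and PVT1 from -1.12 to 0.88, reached without H716.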
